A study of Mus musculus with 15 samples.

Results

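The genes described here stood out as bright in single juxtaglomerular (JG) cells of the adult mouse kidney, in a study of 15 arrays. They are Mgp, Crip1, Ptp4a3, Gm13889, Tns1, Aldh7a1 and Chchd10. They were selected on their measured log2 signals, because JG cells held them above embryonic mesenchyme cells or above diluted cortex. The values of those contrasts are therefore a description and carry no test. All probe sets whose only annotated symbol is one of these names were taken, which gave 12 probe sets for 7 genes, of 19938 genes with a probe set of their own among 35557 probe sets. Tns1 has 6 of the 12 probe sets and each of the other genes has 1.

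The JG group holds 5 single fluorescent JG cells, numbered 4 to 8, picked next to glomeruli of adult male Ren1c-YFP mice after collagenase A and trypsin. It was set against 4 single cells of the metanephric mesenchyme (MM), numbered 14, 15, 16 and 19, from embryos of 11.5 days of unknown sex that carried a Crym-EGFP transgene. Cortex of adult male Ren1c-YFP mice, a mixture of cell types, was labelled in 2 ways. Diluted cortex (libraries A, B and C) went through the single cell amplification, recorded as 32 rounds, and standard-labelled cortex (A, B and C) through a NuGEN kit, recorded as 1 round. The strain is unspecified for all groups, and all arrays come from animals with a fluorescent reporter. One label text names the reporter of the JG cells Ren1d GFP where the characteristics name Ren1c-YFP. Because the reporter is driven by a renin gene, the JG cells are cells in which that gene was active, and both the enzymes and the picking came before lysis. No label names an animal for a cell, so the cells of a group together make up 1 sample, and differences that involve cells are given without a test. In cortex, fewer cells of a type and less RNA per cell cannot be told apart.

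JG cells are modified smooth muscle cells in the wall of the afferent arteriole. They store renin in granules and release it when blood pressure or salt delivery falls, and renin starts the cascade that forms angiotensin. When demand is high, neighbouring smooth muscle cells can take up renin production, so JG and smooth muscle cells share a lineage. The label was checked against a renin cell list of 16 genes, of which 12 had a probe set of their own. Ren1, Ren2, Akr1b7 and Gnas were among those not analysed here. Crip1 is on this list and was picked for its level in JG cells, so it was left out of the check. Of the other 11 genes, JG cells 4 to 8 held 2, 0, 3, 4 and 3 above background, MM cells 4, 2, 2 and 4, diluted cortex 6 in each library and standard-labelled cortex 6, 9 and 7. None of the 11 was above background in all 5 JG cells, beside 3.32% of all genes. These counts did not set JG cells apart from MM cells. The genes behind the counts differed in part. Rgs5 and Gja4 were above background in some JG cells and no MM cell. Foxd1, Kcnj8 and Adcyap1r1 were above it in some MM cells and no JG cell. None of the 11 had every JG cell above, or every JG cell below, every MM cell. Over all genes the shares were 6.86% and 1.13%. Background is the 99th percentile, on the same array, of 1193 olfactory and vomeronasal receptor probe sets, genes that belong mostly to sensory neurons.

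The arrays differed in how much they detected. JG cells had 7.07 to 14.5% of the probe sets with 1 symbol above background, MM cells 11.5 to 21.6%, diluted cortex 47.8 to 49.9% and standard-labelled cortex 44.3 to 48.6%. The background itself was higher in JG cells, at a log2 signal of 7.56 to 7.94, than in diluted cortex, at 6.19 to 6.30. Over the receptor probe sets, JG cells had a median difference of 1.03 from diluted cortex, 0.21 from MM cells and 0.99 from standard-labelled cortex. Receptor-centred values therefore stand beside the differences from cortex of each member's brightest probe set over all JG cells. Differences and counts for other probe sets and for related genes are as deposited and carry this offset. Markers of other cell types were above background in some JG cells. Cells 4 to 8 had 0, 0, 0, 2 and 5 of 12 smooth muscle genes above background, and 2, 1, 3, 4 and 2 of 12 pericyte and mesangial genes. They had 0, 3, 0, 0 and 4 of 16 proximal tubule genes, and 1, 1, 2, 0 and 2 of 10 endothelial genes. None of 9 macrophage and leukocyte genes and none of 7 loop and distal tubule genes was above background in a JG cell. Of 8 fibroblast genes, Col1a1, Col1a2 and Col3a1 were above background in all 5 JG cells and in all 4 MM cells, and the other 5 in no JG cell. Cells 4 to 8 had 3, 1, 1, 2 and 4 of 8 collecting duct genes, 1, 1, 2, 1 and 2 of 6 podocyte genes and 1, 2, 2, 0 and 6 of 11 cap mesenchyme genes above background. The part of these markers in the members' values was not tested.

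**Figure D1:**
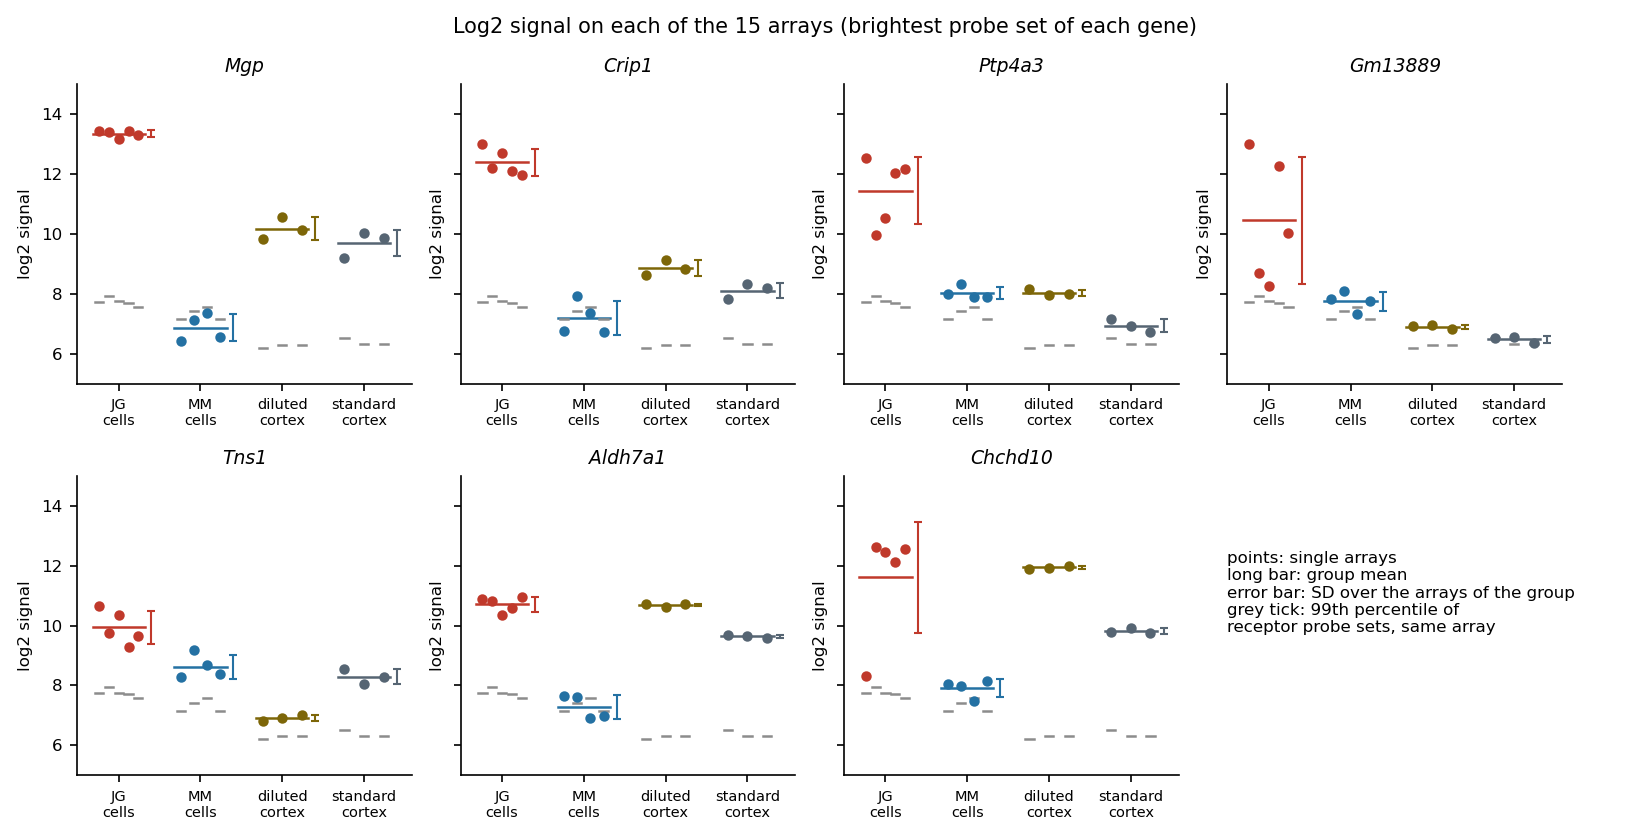
Log2 signal of the 7 genes (brightest probe set) in every array, with 1 panel a gene; points are the 5 JG cells, 4 MM cells, 3 diluted and 3 standard-labelled cortex libraries, long bars are group means, error bars SDs and grey ticks the background of each array. The JG cells of Mgp sit between 13.17 and 13.46, all above every other array, while Gm13889 and Chchd10 spread over more than 4 log2 units within the JG cells.

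As a description, all 5 JG cells lay above all 4 MM cells for 7 of 7 genes, where 6.86% of all 19938 genes did so. They lay above all 3 diluted cortex libraries for 5 of 7 genes, beside 49.8% of all genes. They lay above all 3 standard-labelled libraries for 6 of 7 genes, beside 52.0%. Mgp, Crip1, Ptp4a3, Gm13889 and Tns1, 5 of the 7, were higher in every JG cell than on any other array, beside 4.76% of all genes. All 7 were above background in all 5 JG cells, beside 3.32%. The rule used the first 2 of these contrasts, and the other counts rest on the same JG signals. Nothing is therefore read from any of these counts, nor from the receptor-centred ones that follow. With each array centred on its receptor median, the count above MM cells was 4 of 7, beside 1.91% of all genes. Gm13889, Tns1 and Chchd10 were the 3 that then overlapped. The count above diluted cortex was then 5 of 7, beside 6.96% of all genes, and the count above standard-labelled cortex 4 of 7, beside 6.68%. The lowest JG cell exceeded the highest other array by 2.82 log2 units for Crip1, 2.58 for Mgp, 1.67 for Ptp4a3, 0.15 for Gm13889 and 0.10 for Tns1. For Aldh7a1 and Chchd10 it lay below the highest other array, by a margin of -0.39 and -3.68.

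Mgp encodes matrix Gla protein, a secreted vitamin K-dependent protein that inhibits calcification of vessel walls and cartilage. JG cells 4 to 8 measured 13.46, 13.41, 13.17, 13.45 and 13.31. MM cells 14, 15, 16 and 19 measured 6.41, 7.13, 7.35 and 6.55. Diluted cortex A, B and C measured 9.82, 10.59 and 10.12, and standard-labelled cortex 9.19, 10.03 and 9.86. Every JG cell was above all other arrays, the MM cells were at background on all 4 arrays, and both cortex labellings were well above it. The JG mean was 13.36 ± 0.12 (SD, n = 5 cells), and diluted cortex averaged 10.17 ± 0.39 (SD, n = 3). JG cells were thus higher by 3.19, or 9.10-fold, and by 2.13 after receptor centring. Against MM cells it was at least 65.8-fold higher, counting each MM array at its background. Among 173 genes with a JG mean of 10 or more, the SD of Mgp over JG cells was the 2nd lowest, where the median SD was 1.86. Mgp lay 0.34 to 0.58 below the highest probe set of each JG array, near the top of the measured range, and the part of this in its low SD was not tested. The SDs of Aldh7a1, Crip1, Ptp4a3, Chchd10 and Gm13889 were the 10th, 40th, 63rd, 86th and 103rd lowest of the same 173 genes.

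Crip1 encodes a small LIM-domain protein, a zinc-binding fold that mediates protein contacts, and it stands on the renin cell list. JG cells 4 to 8 measured 13.01, 12.19, 12.71, 12.11 and 11.96. MM cells measured 6.75, 7.93, 7.36 and 6.74. Diluted cortex measured 8.62, 9.14 and 8.85, and standard-labelled cortex 7.83, 8.32 and 8.18. No group overlapped the JG cells, and 1 of 4 MM cells was above background. The JG mean of 12.40 ± 0.44 (SD, n = 5 cells) was 3.53 above diluted cortex, at 8.87 ± 0.26 (SD, n = 3), or 11.5-fold, and 2.48 after receptor centring. It was 5.20 above MM cells and 4.29 above standard-labelled cortex, or 3.28 after receptor centring.

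Ptp4a3 encodes a prenylated protein tyrosine phosphatase of the PRL family, studied in vascular cells and in tumour spread. JG cells 4 to 8 measured 12.55, 9.98, 10.52, 12.03 and 12.19. MM cells measured 7.98, 8.32, 7.89 and 7.91. Diluted cortex measured 8.15, 7.95 and 7.996, and standard-labelled cortex 7.15, 6.93 and 6.72. JG cells 5 and 6 were below the other 3 and yet above every other array. The JG mean was 11.46 ± 1.13 (SD, n = 5 cells), which was 3.42 above diluted cortex and 3.43 above MM cells, and 2.37 above diluted cortex after receptor centring.

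Gm13889 is a predicted gene with no role stated here. JG cells 4 to 8 measured 13.00, 8.70, 8.25, 12.29 and 10.02. MM cells measured 7.82, 8.10, 7.32 and 7.75. Diluted cortex measured 6.92, 6.96 and 6.82, and standard-labelled cortex 6.51, 6.57 and 6.35. Cells 4 and 7 were high, cell 8 intermediate and cells 5 and 6 close to the MM cells, with a lowest JG cell only 0.15 above the highest MM cell. The JG mean was 10.45 ± 2.12 (SD, n = 5 cells), 3.55 above diluted cortex and 2.70 above MM cells, and 2.50 above diluted cortex after receptor centring. The values of cells 5 and 6 for both Ptp4a3 and Gm13889 were the lowest of the 5.

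Tns1 encodes tensin 1, which links integrins to the actin cytoskeleton at focal adhesions. Its brightest probe set, 10355528, measured 10.65, 9.75, 10.36, 9.27 and 9.65 in JG cells 4 to 8. It measured 8.28, 9.17, 8.67 and 8.37 in MM cells. It measured 6.80, 6.91 and 7.01 in diluted cortex and 8.54, 8.03 and 8.28 in standard-labelled cortex. Every JG cell was above every other array, by a margin of 0.10 over MM cell 15, and the JG mean of 9.94 ± 0.56 (SD, n = 5 cells) was 3.03 above diluted cortex. After receptor centring this difference was 1.98. The JG mean was 1.65 above standard-labelled cortex, but 0.64 after receptor centring and 0.16 with the mean of all 6 probe sets, and in both cases the groups overlapped. Against diluted cortex the mean of all 6 probe sets gave 1.07. The other 5 probe sets differed. Probe set 10355532 measured 9.09, 8.78, 8.97, 8.68 and 8.56 in JG cells, against 7.06, 7.14 and 7.16 in diluted cortex, a difference of 1.70. Probe set 10355530 measured 8.12, 8.38, 8.35, 7.95 and 7.64 in JG cells, against 6.82, 6.95 and 6.84 in diluted cortex, a difference of 1.22. As deposited, both kept JG cells above both cortex labellings, and the MM cells of 10355530 overlapped the JG cells. Relative to the background of each array, 10355532 lay 0.84 to 1.36 above it in JG cells and 0.85 to 0.87 in diluted cortex. Probe set 10355530 lay 0.08 to 0.60 above its background in JG cells and 0.54 to 0.67 in diluted cortex. Probe set 10355514 ran the other way, with 7.51, 6.86, 7.61, 7.22 and 7.16 in JG cells against 8.40, 8.22 and 8.27 in diluted cortex. It was at background in all 5 JG cells, so that it was at least 1.48-fold lower in JG cells. Probe sets 10355534 and 10355536 averaged 7.17 and 7.33 in JG cells, against 6.68 and 6.29 in diluted cortex and 8.13 and 9.75 in standard-labelled cortex, with every JG cell below the standard-labelled libraries. They were above background in 1 and 0 of the 5 JG cells. Over the 12 probe sets of all members, 8 had every JG cell above diluted cortex, beside 49.9% of the 21789 probe sets with 1 symbol. Tns1 probe set 10355514 was the 1 with every JG cell below it, beside 28.6%. The 8 include 10355536, which was above background in 0 of 5 JG cells and 1 of 3 diluted libraries. The counts are as deposited and the rule used this contrast, so nothing is read from them. Which part of the Tns1 transcript each probe set reads was not analysed here.

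**Figure D2:**
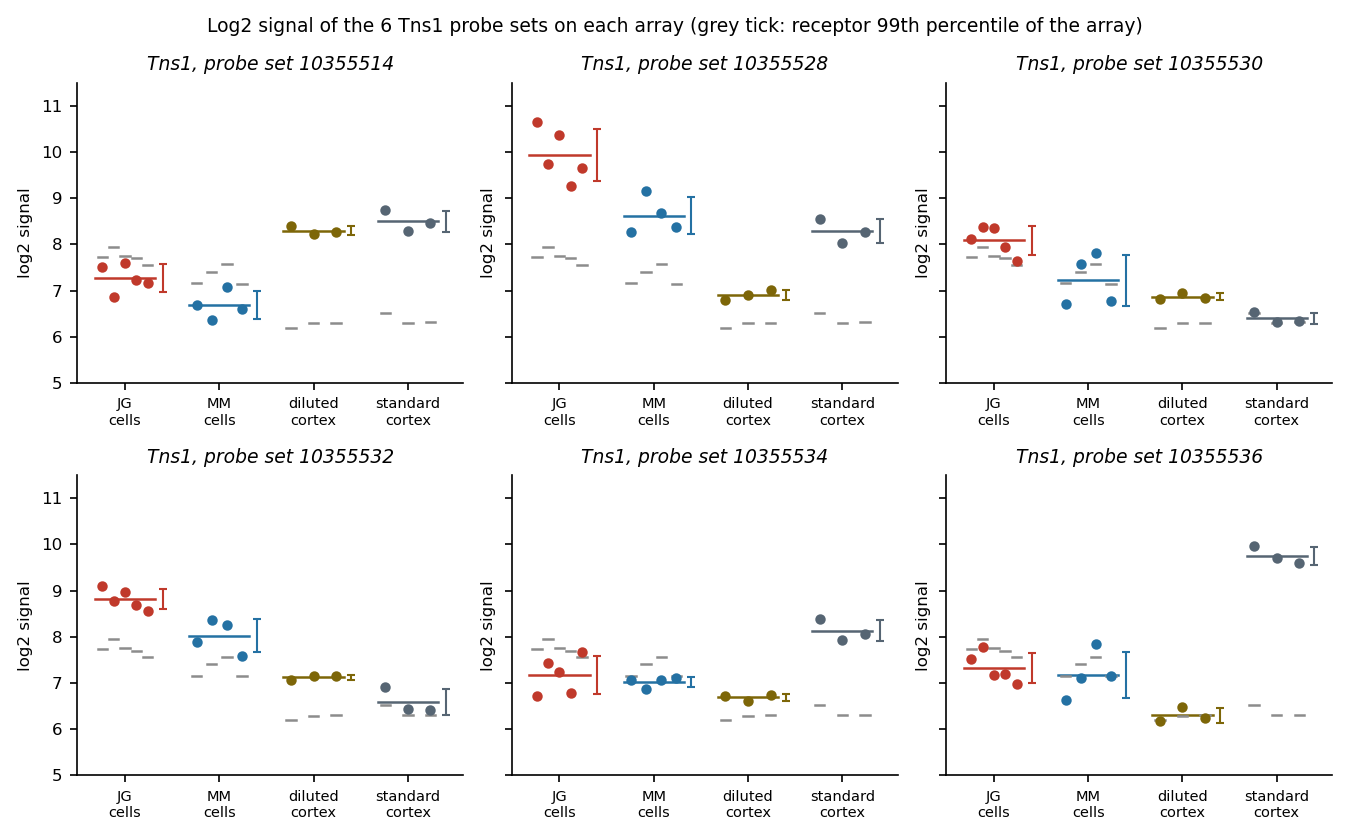
Log2 signal of the 6 Tns1 probe sets in every array, by group, with means as long bars, SDs as error bars and the background of each array as grey ticks. Probe set 10355528 is highest in JG cells, at a mean of 9.94, while 10355536 is highest in standard-labelled cortex, at a mean of 9.75.

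Aldh7a1 encodes an aldehyde dehydrogenase of lysine breakdown that oxidises alpha-aminoadipic semialdehyde. JG cells 4 to 8 measured 10.87, 10.81, 10.34, 10.59 and 10.95. MM cells measured 7.64, 7.61, 6.89 and 6.98, of which 2 were above background. Diluted cortex measured 10.71, 10.63 and 10.72, and standard-labelled cortex 9.67, 9.66 and 9.59. JG cells and diluted cortex overlapped, with means of 10.71 ± 0.25 (SD, n = 5 cells) and 10.69 ± 0.05 (SD, n = 3), while MM cells were lower than both. The difference from diluted cortex depended on the scaling: 0.02 as deposited, -1.03 after receptor centring and 1.55 after quantile normalization. The difference from MM cells was 3.43. The difference from standard-labelled cortex was 1.07 as deposited and 0.06 after receptor centring, where the groups overlapped.

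Chchd10 encodes a small protein of the mitochondrial intermembrane space, named for its coiled-coil-helix domain. JG cells 4 to 8 measured 8.32, 12.62, 12.45, 12.11 and 12.55. MM cells measured 8.05, 7.97, 7.48 and 8.14. Diluted cortex measured 11.88, 11.94 and 12.003, and standard-labelled cortex 9.77, 9.93 and 9.75. JG cell 4 was near the MM cells, and the other 4 cells were above every other array, diluted cortex included. The JG mean was 11.61 ± 1.85 (SD, n = 5 cells), which was 3.70 above MM cells and -0.33 relative to diluted cortex. Without JG cell 4 the differences were 4.52 and 0.49. After receptor centring the deposited difference from diluted cortex was -1.38, and every JG cell then lay below it.

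**Figure D3:**
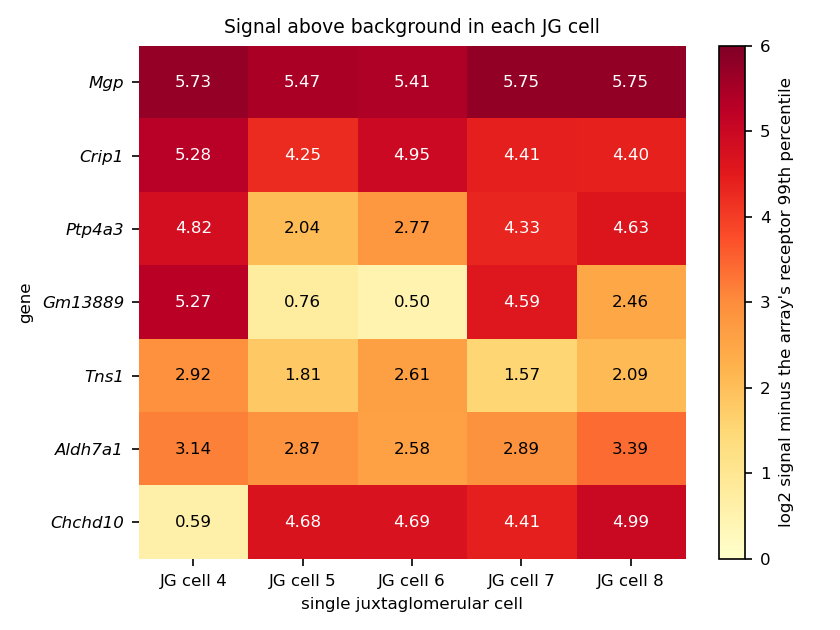
Heat map of the log2 signal of the 7 genes (down the page) above the background of each array, in JG cells 4 to 8 (across), with the value printed in each square. Mgp stays between 5.41 and 5.75 above background, while cell 4 holds the highest Gm13889, 5.27 above it, and the lowest Chchd10, 0.59 above it.

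Against the stricter background of the highest receptor probe set of the array, the members were above it in 32 of 35 gene and JG cell pairs, beside 2.72% of such pairs over all genes. The members were picked for their level in these cells, so nothing is read from this count. The exceptions were Gm13889 in 2 JG cells and Chchd10 in 1. Of the MM cells, only 1 exceeded it, for Tns1. Cell 4 was the highest JG cell for Mgp, Crip1, Ptp4a3, Gm13889 and Tns1 and the lowest for Chchd10. Cells 4, 5 and 6 had Acta2, smooth muscle actin, at 6.57, 6.02 and 6.93, and cells 7 and 8 at 12.20 and 11.32. Mgp was at 13.45 and 13.31 in the cells with high Acta2, and at 13.46, 13.41 and 13.17 in cells 4 to 6. Mgp was near the top of the measured range in all 5 JG cells, so nothing is read from this.

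The sequence before the start of 3 of the 7 genes is shown to set the starts of genes picked by the same rule side by side. The windows are the 250 bases upstream, 5′ to 3′, from RefSeq in GRCm38.p6. They are chr12:113151762-113152011 (plus strand) for Crip1, chr1:74124549-74124798 (minus strand) for Tns1 and chr10:75932880-75933129 (plus strand) for Chchd10. Motifs were searched on both strands: the GC box (GGGCGG), the CCAAT box by those letters, the TATA box (letters TATAAA), the cyclic AMP response half-site (TGACG) and the core bound by the Notch effector RBPJ (TGGGAA). Capitals mark the matches, which do not overlap each other.
Crip1: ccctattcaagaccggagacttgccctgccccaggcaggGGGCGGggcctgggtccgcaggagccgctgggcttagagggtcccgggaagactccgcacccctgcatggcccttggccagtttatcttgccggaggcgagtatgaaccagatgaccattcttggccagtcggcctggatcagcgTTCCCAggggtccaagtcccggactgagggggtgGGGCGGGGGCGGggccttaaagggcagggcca
Tns1: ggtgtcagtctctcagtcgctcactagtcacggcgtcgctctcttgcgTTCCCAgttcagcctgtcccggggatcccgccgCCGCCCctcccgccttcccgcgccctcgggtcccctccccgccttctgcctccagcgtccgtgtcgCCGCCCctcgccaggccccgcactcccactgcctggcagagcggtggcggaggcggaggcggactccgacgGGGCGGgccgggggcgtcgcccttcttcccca
Chchd10: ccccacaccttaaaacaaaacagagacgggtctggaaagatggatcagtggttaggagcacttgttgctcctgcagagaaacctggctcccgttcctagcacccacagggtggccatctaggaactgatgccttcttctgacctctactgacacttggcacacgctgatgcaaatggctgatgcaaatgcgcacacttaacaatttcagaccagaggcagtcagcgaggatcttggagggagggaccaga
Crip1 had 3 GC boxes, beginning at bases -211, -32 and -26 from the start, of which the last 2 adjoin, and 1 RBPJ core at -66. Tns1 had 3 GC boxes, at -169, -103 and -32, and 1 RBPJ core at -202. Chchd10 had a match to none of the 5. Over all 32851 promoters of the same length, 32.7% held a GC box and 21.6% an RBPJ core, while the CCAAT box, the TATA box and the half-site, held by 33.8%, 12.4% and 17.8%, matched in none of the 3. The GC content was 67.2% for Crip1, 74.4% for Tns1 and 52.4% for Chchd10, where the median over all promoters was 52.4%. A match is a run of letters and not a site of binding.

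Related genes were then set beside each member, from lists chosen with earlier results of these data known. The members were picked for their level in JG cells and the other genes were not. Nothing is therefore read from a member lying above its list. Most of these other genes were not above background in JG cells, so their differences are lower bounds where so marked. The differences and counts are as deposited, without receptor centring. A gene at background in JG cells can thus still count as above diluted cortex. The calcification and vitamin K list around Mgp had 15 other genes, of which 3 had every JG cell above diluted cortex and 7 every JG cell below it, with a median difference of -1.50, beside 49.8% above, 29.3% below and a median of 0.56 over all genes. Gas6, a vitamin K-dependent ligand of receptor kinases, and Alpl, alkaline phosphatase, were at background in all JG cells and at least 6.36-fold and 7.45-fold lower than in diluted cortex. Bmp4, a growth factor that Mgp binds, was at background in all JG cells and at least 2.99-fold lower.

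Among 10 other LIM-only genes beside Crip1, 3 were above and 6 below diluted cortex, with a median of -1.29. Crip2, a close relative, averaged 7.42 in JG cells, against 10.15 in diluted cortex and 6.08 in standard-labelled cortex. Crip3 averaged 7.43 in JG cells, against 6.20 in diluted cortex. Csrp2, a LIM protein of smooth muscle, averaged 6.60 in JG cells, against 11.51 in diluted cortex. None of the 10 had every JG cell above every MM cell, beside 6.86% of all genes.

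Of 5 other genes of the PRL phosphatases and their CNNM partners, 2 were above and 2 below diluted cortex, with a median of -0.13, and all 5 were at background in all JG cells. Ptp4a2, another PRL phosphatase, averaged 5.82 in JG cells, against 8.90 in diluted cortex, 10.41 in standard-labelled cortex and 9.10 in MM cells. Set against diluted cortex, Ptp4a2 was at least 2.24-fold lower in JG cells, where Ptp4a3 was higher. Ptp4a1 was not analysed here.

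Of 21 other genes of tensins and focal adhesions, 9 were above and 7 below diluted cortex, with a median of 0.12. Tns2 averaged 7.17 in JG cells, against 7.02 in diluted cortex. Tns3 averaged 7.27, against 5.95, at background in all JG cells. Itgb1, the integrin beta 1 chain, was at background in all JG cells and at least 2.93-fold lower.

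The lists of the enzyme and the mitochondrial protein were further below cortex. Of 17 other lysine and aldehyde genes, 1 was above and 13 were below diluted cortex, with a median of -3.33, and 16 were at background in all JG cells. Aadat, an aminotransferase of the lysine pathway, and Aass, which makes the substrate of Aldh7a1, were at least 17.2-fold and 7.38-fold lower. Of 13 other mitochondrial CHCHD and related genes, 0 were above and 8 below, with a median of -2.69. Cox17, a copper chaperone, and Chchd3 and Immt, parts of the inner membrane cristae complex, were at least 10.8-fold, 14.3-fold and 10.2-fold lower. Against MM cells, 1 of 17 and 0 of 13 had every JG cell above, and the median differences were 0.14 and -0.53. Over all genes the share was 6.86% and the median 0.19.

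**Figure D4:**
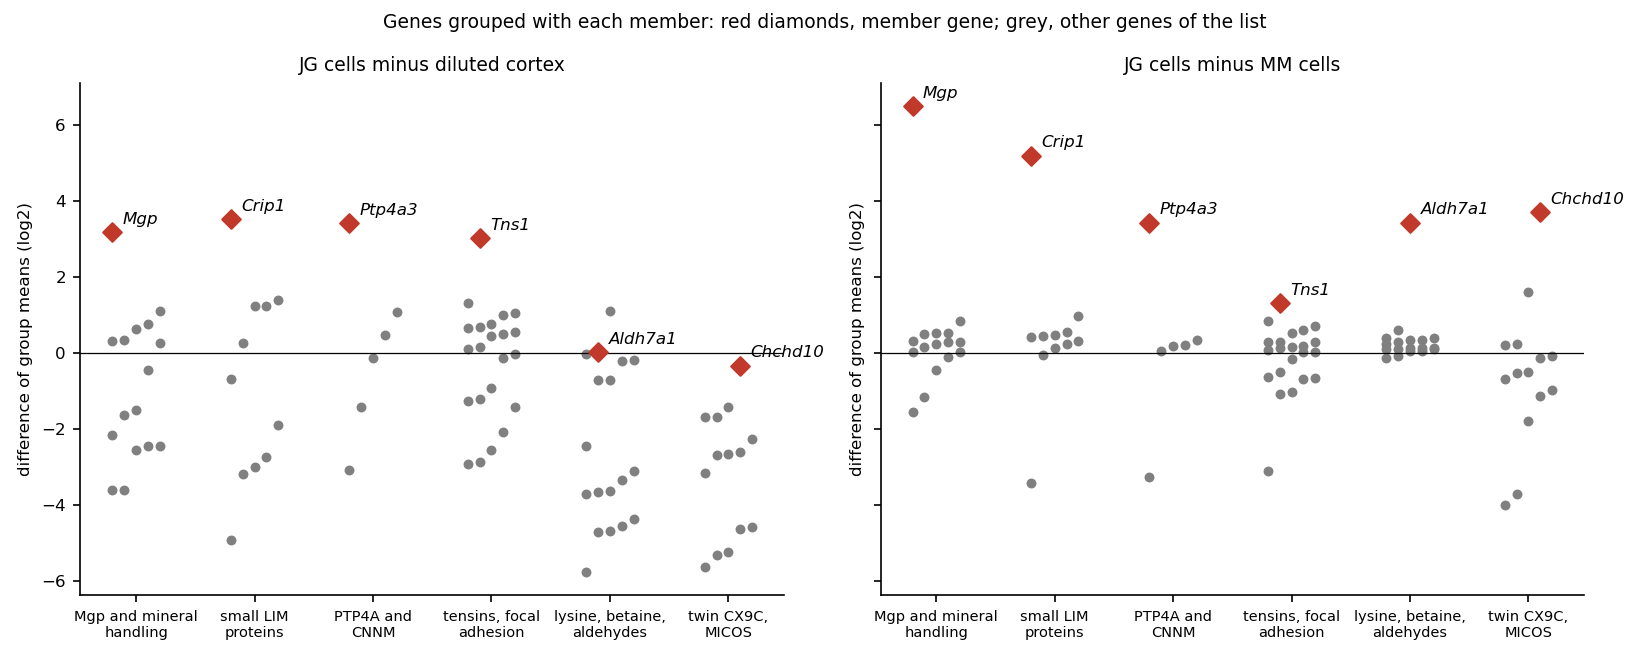
Difference of JG cells from diluted cortex (left) and from MM cells (right), in log2 units on the y axis, for 6 members (red diamonds) and for the other measured genes of the list that goes with each (grey points). On the left, Aldh7a1 and Chchd10 lie at 0.02 and -0.33, above most genes of their lists, whose medians are -3.33 and -2.69. The members were picked for their level in JG cells, so nothing is read from their place above the lists.

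The nearest patterns over the 15 arrays were found by centring each gene on its own mean and taking the root mean square difference, among 10889 genes above background on at least 3 arrays. The 3 closest were Hspb1, Igfbp7 and Cystm1 for Mgp, at 1.53, 1.73 and 1.95, where Mgp's own spread was 2.54. For Crip1 they were Hspb1, Ndufa4l2 and Fxyd1, at 1.28, 1.52 and 1.59, with an own spread of 2.19. For Ptp4a3 they were Kcnk3, Sncg and Sfrp2, at 1.03, 1.10 and 1.12, and for Gm13889 Tra2a, Apold1 and Kcna5, at 1.05, 1.11 and 1.13. Hspb1, a small heat shock protein, averaged 12.66 in JG cells, against 8.14 in MM cells, 10.30 in diluted cortex and 7.58 in standard-labelled cortex. For Tns1 they were 1700031F05Rik, Mir328 and Prp2, at 0.35, 0.39 and 0.39. For Aldh7a1 they were Akr1b10, Agtr1a and Insig1, at 0.71, 0.79 and 0.97, and for Chchd10 Cystm1, Serping1 and Apoe, at 1.07, 1.22 and 1.25. Agtr1a, a receptor of angiotensin II, averaged 8.02 in JG cells, against 6.21 in MM cells, 8.20 in diluted cortex and 7.90 in standard-labelled cortex. These arrays share their background and the split into cells and cortex.

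The one contrast with a test was diluted against standard-labelled cortex. The 2 labellings differ together in dilution, labelling method and recorded rounds, which cannot be told apart here. The diluted libraries were one of the groups the genes were picked against. Nothing says that the libraries come from separate animals, so the p-values measure the spread between these libraries, which may be technical. Of the 12 probe sets, 7 were higher and 3 lower in diluted cortex at an adjusted p under 0.05 (limma), beside 38.0% higher and 36.7% lower of 19531 probe sets. Chchd10 was 2.12 higher in diluted cortex (95% confidence interval 1.91 to 2.33, limma adjusted p 3.14e-07). Ptp4a3 was 1.10 higher (limma adjusted p 8.21e-05), Aldh7a1 1.04 higher (8.27e-06), Crip1 0.76 higher (0.00382) and Gm13889 0.43 higher (0.00372). Gm13889 was near background in standard-labelled cortex, at -0.01 to 0.26 from it. Mgp was 0.48 higher (interval -0.12 to 1.08, limma adjusted p 0.124) and did not pass. With each array centred on its median, Mgp was 0.66 higher and passed (limma adjusted p 0.0487), while quantile normalization gave 0.22 (limma adjusted p 0.458). It was 0.23 higher without standard-labelled library A and 0.27 without diluted library B (limma adjusted p 0.376 and 0.344).

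The probe sets of Tns1 split in that contrast. Probe sets 10355536, 10355534 and 10355528 were lower in diluted cortex, by -3.46, -1.45 and -1.38 log2 units (limma adjusted p 1.72e-07, 1.72e-05 and 3.71e-05). Probe sets 10355532 and 10355530 were higher, by 0.54 and 0.47 (limma adjusted p 0.00883 and 0.00233), and 10355514 was -0.21 (0.176) and did not pass. Several of these values lay near background. In standard-labelled cortex, 10355532 was 0.10 to 0.38 and 10355530 was 0.01 to 0.04 above it. In diluted cortex, 10355536 was -0.07 to 0.18 from it. Crip2 was 4.07 higher in diluted cortex (limma adjusted p 1.19e-07) and Ptp4a2 was -1.51 (limma adjusted p 1.27e-06). Of the lists, 8 of 13 tested genes of the Mgp list were higher and 1 lower, 7 and 1 of 9 LIM genes, 1 and 2 of 5 PRL genes, 6 and 10 of 20 tensin genes, 9 and 3 of 16 lysine genes and 8 and 4 of 13 mitochondrial genes. With each array centred on its median, the median difference over the 19553 probe sets then tested was 0.20. As deposited it was -0.001 over 19531. After centring 8932 were higher and 5846 lower, against 7430 and 7169 as deposited.

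**Figure D5:**
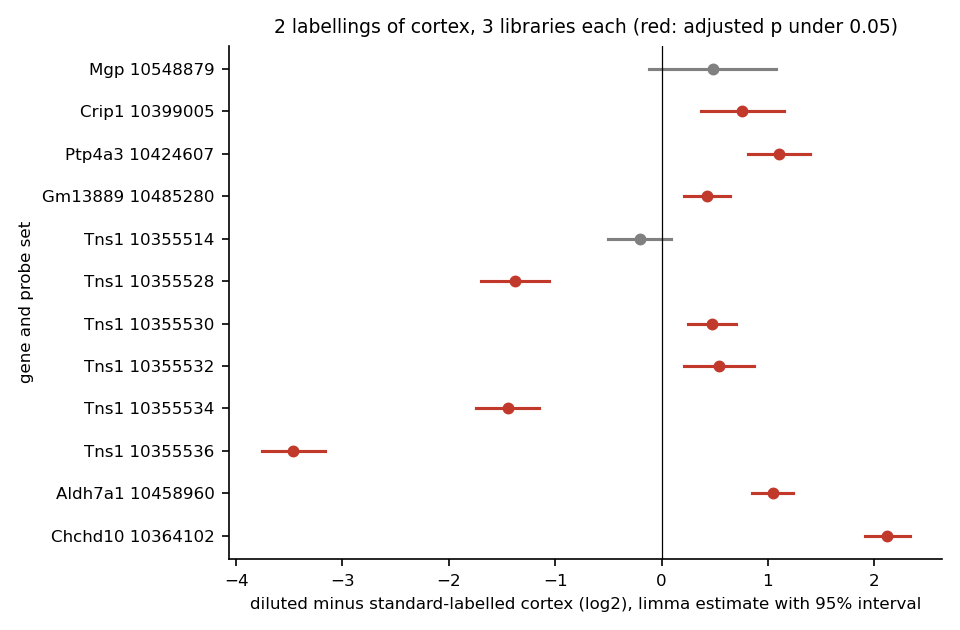
Diluted minus standard-labelled cortex (log2, with 95% confidence intervals from limma) for the 12 probe sets of the 7 genes. Red marks an adjusted p under 0.05; Chchd10 is the highest at 2.12 and Tns1 probe set 10355536 the lowest at -3.46.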

How the data were processed

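The 15 arrays hold 5 JG cells, 4 MM cells, 3 diluted and 3 standard-labelled cortex libraries. The authors deposited log2 signals of 35557 probe sets, from 2.22 to 13.98 and without gaps. Per the submitters' processing notes they come from Affymetrix Expression Console. Not given in the sources used here are its version, the summary algorithm and the normalization. The values were used as deposited. An array has no count depth, and the number of arrays limits the precision. The highest correlation between 2 arrays was 0.995, and no 2 were identical.

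Genes were named from GEO's platform annotation: 21789 probe sets have 1 symbol, 1621 several and 12147 are unlisted and stayed unnamed. A gene is represented by its brightest probe set over the 15 arrays. Python 3.11.15 (numpy 2.4.6, pandas 2.3.3) gave values and differences, and limma 3.58.1 in R 4.3.3 (lmFit, eBayes) the cortex test. A probe set was tested where its higher group mean reached the overall median, with Benjamini-Hochberg adjustment over all tested and a threshold of 0.05. The limma step was tested on simulated data. Bounds replace a group at background on all its arrays by the higher of each array's background and its own value. The 7 members and all lists were chosen with earlier results of these data known. Genes named beside the members were the 3 nearest patterns, up to 4 genes per list with the largest difference of JG cells from diluted cortex, and close relatives. Alternatives were receptor centring, median centring, quantile normalization, the mean of a gene's probe sets, other backgrounds, no filter, a replicate block and leaving out each array.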

Additional observations from a re-analysis of the deposited data

Results flagged for a closer look

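Chchd10 in JG cell 4 was at a log2 signal of 8.32, far below the other 4 JG cells, which lay between 12.11 and 12.62. The gap to the nearest other cell was 0.881 of the whole range of the group, above the critical value for 5 samples. Of 24 groups examined, the JG and MM cells of the 12 probe sets, 1 was singled out in this way, and chance gives about 1 in 20. Cell 4 was still 0.59 above the background of its array, and it held the highest Gm13889, Crip1 and Ptp4a3 of the 5 cells. Of its probe sets with 1 symbol, 9.39% were above background, against 7.07% in cell 5 and 10.3 to 14.5% in cells 6 to 8. The cause was not tested.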

How the results depend on the processing

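The number of members with every JG cell above every MM cell was 7 as deposited and 4 with arrays centred on the receptor median, where Gm13889, Tns1 and Chchd10 overlapped. The counts against diluted cortex stayed at 5 to 6 and against standard-labelled cortex at 4 to 7 under the other scalings and with the mean of a gene's probe sets. Over all genes the share above diluted cortex was 49.8% as deposited and 6.96% to 49.8% under these settings, and above standard-labelled cortex 52.0% and 6.68% to 52.0%. Leaving out each cell or library in turn gave 5 to 6 against diluted cortex, 7 against MM cells and 6 to 7 against standard-labelled cortex, the higher counts without JG cell 4. Of the single differences with no test, 13 moved by more than the SD over JG cells, under receptor centring or quantile normalization. In the cortex contrast 10 of 12 member probe sets passed, and 10 to 11 under the alternatives. Mgp passed with median centring (0.66, limma adjusted p 0.0487), and Tns1 probe set 10355514 with quantile normalization (-0.38, limma adjusted p 0.0483). The library letters as a replicate block gave 11 passing probe sets, Mgp among them (limma adjusted p 0.00908). By the rule used, the letters were not taken as a pairing. Deviations of same-letter libraries correlated at 0.17 for A, 0.18 for B and 0.05 for C over 18137 probe sets. Pairs with different letters ran from -0.20 to 0.04, so whether the letters pair the libraries is not settled here. The unknown normalization and the high background of the single cells limit all differences from cortex.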

Other observations

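Mgp and Crip1 varied between the cortex libraries in 1 order in both labellings, lowest in A, then C, highest in B. Diluted cortex A, B and C held Acta2 at 8.13, 9.89 and 9.28 and Myl9 at 9.53, 11.12 and 10.62, and standard-labelled cortex held Acta2 at 6.80, 8.91 and 8.40 and Myl9 at 8.07, 9.27 and 8.76, in the same order. These 2 genes were chosen after their values were seen. They are the 2 of 5 smooth muscle genes above background in all 6 libraries that had this order. Myh11, at 6.47, 6.50 and 6.51 in diluted cortex, did not, nor did Tagln, at 6.50, 6.64 and 6.34, which was at background in standard-labelled library A. In standard-labelled cortex alone, Myh11 (6.56, 7.07 and 6.73) and Tagln (6.46, 7.29 and 7.10) had it. Cnn1 and Des had it in both labellings but were not above background in all 6 libraries. Of 7320 genes above background in all 6 libraries, 862 (11.8%) had this order in both labellings. The other members did not.

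Of the 14 protein-coding genes that flank the members in RefSeq, 13 were measured. Their differences of JG cells from MM cells ran from -1.70 to 1.30 and from diluted cortex from -2.63 to 2.15. Of the 13, 1 had every JG cell above every MM cell, beside 6.86% of all genes. Likewise 1 was above background in all JG cells, beside 3.32%. In the calcification list, Vkorc1, the vitamin K recycling enzyme, was at 6.55, 6.36, 11.91, 12.67 and 7.11 in JG cells 4 to 8, above background in 2 of 5, while Mgp was high in all 5. Vkorc1 was chosen after its values were seen.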
